A study of Mus musculus with 24 samples.

Results

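The genes of the proteasome, the large protease that degrades proteins tagged with ubiquitin, were followed in frontal cortex RNA of mice given sarcosine, memantine or both. They are the protein-coding genes named Psma to Psmg with a number, without the immunoproteasome genes Psmb8, Psmb9 and Psmb10, that had a normalised count of at least 10 in at least 6 of 24 libraries. The names fitted 48 genes. Of these, 45 passed the minimum, among 16578 genes that passed it and 57180 in the table. All 45 had at least 10 normalised counts in every one of the 24 libraries. The 3 that fell short were Psmb11, Psma8 and Psme2b, with mean normalised counts of 4.84, 3.00 and 6.47. Psmb11 and Psma8 are known from the thymus and the testis. Of the 45 genes, 43 encode subunits, activators, an inhibitor or assembly chaperones. The other 2, Psmc3ip and Psme3ip1, are named for a partner: the product of Psmc3ip acts in meiotic recombination, and that of Psme3ip1 binds an activator.

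RNA came from punches of frontal cortex of male C57BL/6 wild-type mice, 4 weeks old, injected intraperitoneally once a day for 28 days. The groups were the combination (sarcosine 100 mg/kg with memantine 20 mg/kg), sarcosine alone at 100 mg/kg, memantine alone at 20 mg/kg, and vehicle, with 6 libraries each. Sarcosine, N-methylglycine, inhibits uptake of glycine, a co-agonist of NMDA receptors, and memantine blocks the open channel of these receptors. The labels do not say whether each library is 1 animal, so p-values measure the spread between these libraries.

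The proteasome consists of a barrel-shaped core particle and a regulatory particle that caps it. The core has outer rings of alpha subunits, which form the gate, and inner rings of beta subunits, of which Psmb5, Psmb6 and Psmb7 encode the proteolytic ones. The regulatory particle has a ring of ATPases that unfold substrates and a set of non-ATPase subunits that bind ubiquitin and remove it. In neurons the proteasome takes part in the turnover of synaptic proteins. In mammals the transcription factor encoded by Nfe2l1 raises the subunit genes together when proteasome activity is short.

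Libraries held 12678114 to 21844579 reads, and 0.303% to 0.361% of them fell on the 45 genes. All 7 markers of cortical excitatory neurons were present in all libraries, but their summed level ranged widely within groups, between 6345 and 51518 normalised counts in sarcosine libraries and between 17678 and 55233 in vehicle libraries. Markers of striatum, olfactory bulb, oligodendrocytes and choroid plexus also ranged widely. Olfactory bulb markers summed to 529 to 10369 in sarcosine libraries and 606 to 3593 in vehicle libraries, and striatal markers to 3245 to 27944 and 3633 to 8941 in the same groups. Microglial markers summed to 5335 to 6250 in sarcosine libraries and 5828 to 7813 in vehicle libraries, and 2 of the 6 were called. The part of these cell types in the results below was not tested, beyond a fit with 3 marker scores as covariates. In bulk RNA, fewer cells of a type and less RNA per cell cannot be told apart.

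Levels per kilobase of transcript differed between genes of 1 role as well as between roles. Over the 24 libraries Psmc5, an ATPase of the regulatory particle, had the highest mean, 2245 ± 267 normalised counts per kilobase (SD over the 24 libraries, here and below). The beta subunit genes Psmb4 and Psmb6 followed with 2013 ± 195 and 1930 ± 184, and the ranges of these 3 genes over libraries overlapped. The median level per kilobase over the genes of a role was 1230 for the ATPase ring, 942 for the beta ring, 817 for the alpha ring and 781 for the non-ATPase subunits. It was 398 for the activators and the inhibitor and 187 for the assembly chaperones. The ranges over the genes overlapped between the 4 roles of the core and regulatory particles, and the roles were not tested against each other. Assembly chaperones, which build the complex and leave it, ranged from 90.9 per kilobase for Psmg3 to 210 for Psmd9. Among the activators, Psme3, which caps the nuclear core particle, had 705 ± 51.3 per kilobase and Psme4 had 109 ± 13.1. The lowest level of all 45 was that of Psmc3ip, 40.5 ± 14.8 per kilobase. Psmd2, at 1303 ± 83.0 per kilobase, was the highest of the non-ATPase subunits and Psmd11, at 408 ± 16.5, the lowest. In the alpha ring Psma6 was highest at 1188 ± 83.4 per kilobase and Psma3 lowest at 385 ± 27.4. In the ATPase ring Psmc6 was lowest at 511 ± 31.4 per kilobase. These levels divide by the longest protein-coding transcript, so a gene used mainly as a shorter one is understated.

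The 3 proteolytic subunits of the standard core exceeded their immunoproteasome counterparts per kilobase. Psmb6 had 1930 ± 184, Psmb7 936 ± 70.0 and Psmb5 826 ± 94.9 normalised counts per kilobase. Of the interferon-inducible counterparts, Psmb9, which replaces Psmb6, had 38.0 ± 13.6. Psmb10, which replaces Psmb7, had 457 ± 74.9, and Psmb8, which replaces Psmb5, had 44.1 ± 16.7.

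**Figure D1:**
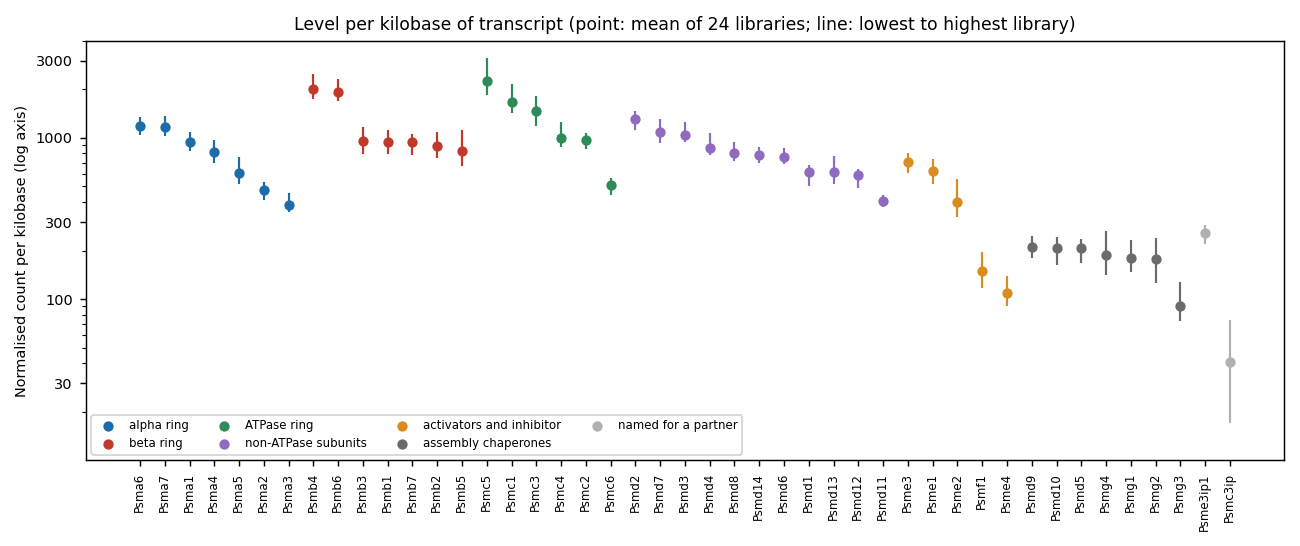
Normalised counts per kilobase of transcript (log axis) for the 45 genes, grouped by role, with the mean of 24 libraries as a point and the lowest to the highest library as a line. Role medians run between 187 for the assembly chaperones and 1230 for the ATPase ring, and the genes of the alpha, beta, ATPase and non-ATPase roles overlap.

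The question of the sarcosine groups is how the drug alone changes cortical RNA. Of the 45 genes, 8 were called lower in sarcosine libraries than in vehicle libraries, 17.8% of them, and 0 were called higher. A gene was called at a Benjamini-Hochberg adjusted p under 0.05 over all genes tested, from limma on log2(normalised count + 1). Among all genes tested, 4.62% were called lower and 4.72% higher. The difference was negative for 40 of the 45 genes, 20 had an unadjusted p under 0.05, each of them lower, and the median difference was -0.15 on the log2 scale against -0.003 over all genes tested. Of the 16578 genes tested, 1839 were lower at an unadjusted p under 0.05. The 8 were Psmb1, Psmb3, Psmb4, Psmb5, Psmb6, Psma4, Psma7 and Psmc5. None of the 8 was called once a trend of each library with transcript length and GC content was removed, and the median difference was then -0.032. That correction left 128 calls over all genes tested, in either direction, so few calls are left for any set of genes. The 45 genes have shorter transcripts than most: their median was 1541 bases, against 3057 bases for the genes tested. edgeR called 10 and DESeq2 15 of the 45 lower, on the recovered reads. Over the 16578 genes tested these tools called 1615 and 2135, in either direction. With upper-quartile scaling 17 of the 45 were called, and the share of lower genes among all called was 66.1% instead of 49.5%.

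The beta ring held 5 of the 8. Transcript length differed by role: the median was 899 bases for the beta ring and 1201 for the alpha ring. It was 1688 for the ATPase ring and 1983 for the non-ATPase subunits. With the length and GC trend removed, the median difference of the beta ring went from -0.25 to -0.050 and 0 of its genes were called. The part of length in the calls by role was not tested. Psmb4, a structural beta subunit, had 2047, 2169 and 2336 normalised counts as lowest, median and highest value in sarcosine libraries, against 2350, 2656 and 2962 in vehicle libraries. Every sarcosine library was below every vehicle library. The difference was -0.28 ± 0.059 (SE, log2, n = 6 libraries each), with an adjusted p of 0.0050 from limma.

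Psmb6 encodes the subunit with caspase-like activity. Its values were 1341, 1413 and 1503 (lowest, median, highest) in sarcosine libraries and 1536, 1728 and 1855 in vehicle libraries, again with no overlap. The difference was -0.25 ± 0.062 (log2), limma adjusted p = 0.0111. Psmb5 encodes the subunit with chymotrypsin-like activity, the target of bortezomib. It had 603, 712 and 729 normalised counts in sarcosine libraries and 732, 844 and 1001 in vehicle libraries. These groups did not overlap either, though the highest sarcosine and the lowest vehicle library lay close together. The difference was -0.28 ± 0.071 (log2), limma adjusted p = 0.0150. Psmb4, Psmb5 and Psmb6 were the 3 of the 45 whose sarcosine libraries all lay below the vehicle libraries, and 2.18% of all genes tested had that pattern.

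Psmb3 and Psmb1 encode structural beta subunits. Psmb3 had 611, 648 and 691 normalised counts in sarcosine libraries and 661, 796 and 899 in vehicle libraries, and the groups overlapped at vehicle replicate 2. Its difference was -0.28 ± 0.072 (log2), limma adjusted p = 0.0149. Psmb1 had 1626, 1728 and 1860 in sarcosine libraries and 1780, 2071 and 2207 in vehicle libraries, overlapping at vehicle replicate 5. Its difference was -0.25 ± 0.064 (log2), limma adjusted p = 0.0161.

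The other 2 beta ring genes were not called. Psmb7, the subunit with trypsin-like activity, had 986, 1054 and 1153 normalised counts in sarcosine libraries and 913, 1108 and 1217 in vehicle libraries. The groups overlapped almost fully, and the difference was -0.049, with a 95% interval of -0.19 to 0.092 (limma adjusted p = 0.756). Psmb2 had 642, 719 and 820 in sarcosine libraries and 657, 827 and 909 in vehicle libraries, a difference of -0.11 (95% interval -0.29 to 0.069, limma adjusted p = 0.518). The 3 proteolytic subunits thus had 2 calls and 1 value with an interval across 0, and their differences were not tested against each other.

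**Figure D2:**
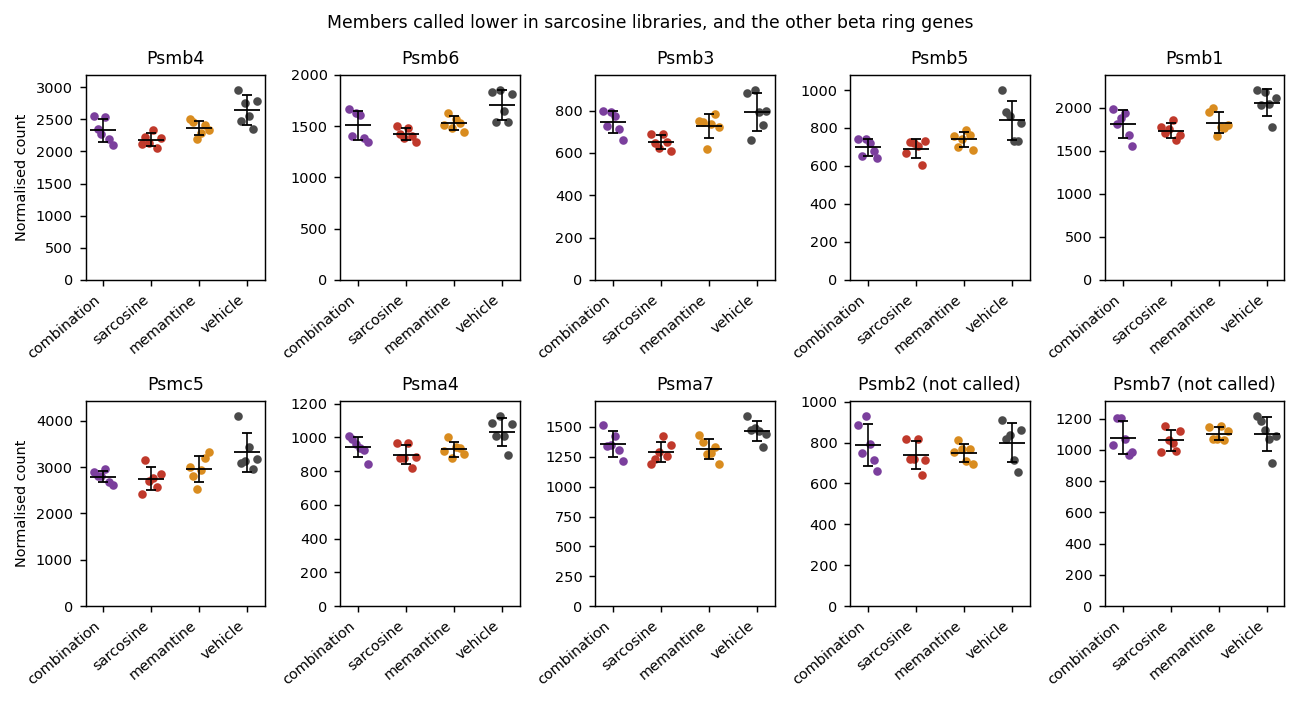
Normalised counts per library for the 8 genes called lower in sarcosine libraries and for Psmb2 and Psmb7, each point a library, each long horizontal line the mean and each error bar its SD (n = 6). Sarcosine libraries lie below all vehicle libraries for Psmb4, Psmb6 and Psmb5, and the groups overlap for Psmb2 and Psmb7.

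All 7 alpha ring genes had negative differences and 2 were called. Psma4 had 817, 883 and 968 normalised counts in sarcosine libraries and 896, 1044 and 1127 in vehicle libraries, with overlap at vehicle replicate 5. The difference was -0.20 ± 0.059 (log2), limma adjusted p = 0.0310. Psma7 had 1192, 1274 and 1423 in sarcosine libraries and 1332, 1472 and 1591 in vehicle libraries, and the groups overlapped. Its difference was -0.19 ± 0.059 (log2), limma adjusted p = 0.0497, close to the threshold. Psma1, with the largest p of the ring, differed by -0.098 (95% interval -0.22 to 0.023).

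Of the 6 ATPases, 1 was called. Psmc5 had 2426, 2731 and 3149 normalised counts in sarcosine libraries and 2953, 3151 and 4100 in vehicle libraries. The 4100 belongs to vehicle replicate 1, and the groups overlapped. The difference was -0.27 ± 0.076 (log2), limma adjusted p = 0.0271. Psmc4 had 1263, 1381 and 1412 in sarcosine libraries and 1339, 1534 and 1813 in vehicle libraries, and just missed the threshold (-0.18 ± 0.058, limma adjusted p = 0.0502). Psmc6 had 1011, 1136 and 1234 in sarcosine libraries and 984, 1149 and 1246 in vehicle libraries, a difference of -0.014 (95% interval -0.13 to 0.11).

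None of the 11 non-ATPase subunits was called by limma, although 4 had an unadjusted p under 0.05. edgeR called 1 of them and DESeq2 called 4. Psmd7, which supports the deubiquitinase of the lid, had 1479, 1591 and 1692 normalised counts in sarcosine libraries and 1554, 1810 and 2063 in vehicle libraries. The difference was -0.18 ± 0.058 (log2), limma adjusted p = 0.0553. Psmd4, a ubiquitin receptor, had 1374, 1424 and 1500 in sarcosine libraries and 1464, 1588 and 1877 in vehicle libraries, a difference of -0.17 ± 0.057 (limma adjusted p = 0.0613). Psmd2, a large scaffold subunit of the base, had 3469, 3871 and 4164 in sarcosine libraries and 3333, 3814 and 4350 in vehicle libraries, a difference of -0.0066 with a 95% interval of -0.13 to 0.11. Psmd1, the other large scaffold of the base, had 1883, 2029 and 2070 normalised counts in sarcosine libraries and 1574, 1880 and 1999 in vehicle libraries. Its difference was positive, 0.12 (95% interval -0.0038 to 0.24), with all 6 sarcosine libraries above the vehicle mean and a limma adjusted p of 0.242.

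None of the 5 activator and inhibitor genes was called by limma, edgeR or DESeq2, and 1 had an unadjusted p under 0.05. Psme1 and Psme2 encode the subunits of the interferon-inducible activator. Psme2 had 309, 354 and 421 normalised counts in sarcosine libraries and 385, 404 and 536 in vehicle libraries, a difference of -0.24 ± 0.098 (log2, limma adjusted p = 0.127). Psme1 had 573, 649 and 770 in sarcosine libraries and 598, 755 and 817 in vehicle libraries, a difference of -0.16 ± 0.093 (limma adjusted p = 0.356). Psme4, an activator known from chromatin and DNA repair, had 636, 723 and 903 in sarcosine libraries and 591, 622 and 748 in vehicle libraries. It had the most positive difference of the 45, 0.18 ± 0.093, and a limma adjusted p of 0.260. Psme3 had 1687, 1903 and 2161 in sarcosine libraries and 1602, 1906 and 2135 in vehicle libraries, a difference of 0.015 (95% interval -0.12 to 0.15).

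None of the 7 assembly chaperones was called by limma or edgeR, and 2 had an unadjusted p under 0.05. DESeq2 called 1, Psmd9. Psmd9, a chaperone of the ATPase ring, had 469, 484 and 538 normalised counts in sarcosine libraries and 481, 588 and 635 in vehicle libraries, a difference of -0.20 ± 0.068 (log2, limma adjusted p = 0.0701). Psmg4, which helps to form the alpha ring, had 79.6, 93.7 and 118 in sarcosine libraries and 91.6, 118 and 147 in vehicle libraries, a difference of -0.30 ± 0.13 (limma adjusted p = 0.163). Psmg1, another alpha ring chaperone, differed by -0.076 ± 0.10. The 2 genes named for a partner were not called. Psmc3ip had the largest difference of the 45, -0.50, at low counts of 26.5 to 66.2 in sarcosine libraries and 45.3 to 84.8 in vehicle libraries, with a 95% interval of -1.13 to 0.12. Psme3ip1 differed by -0.072 (95% interval -0.20 to 0.053).

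**Figure D3:**
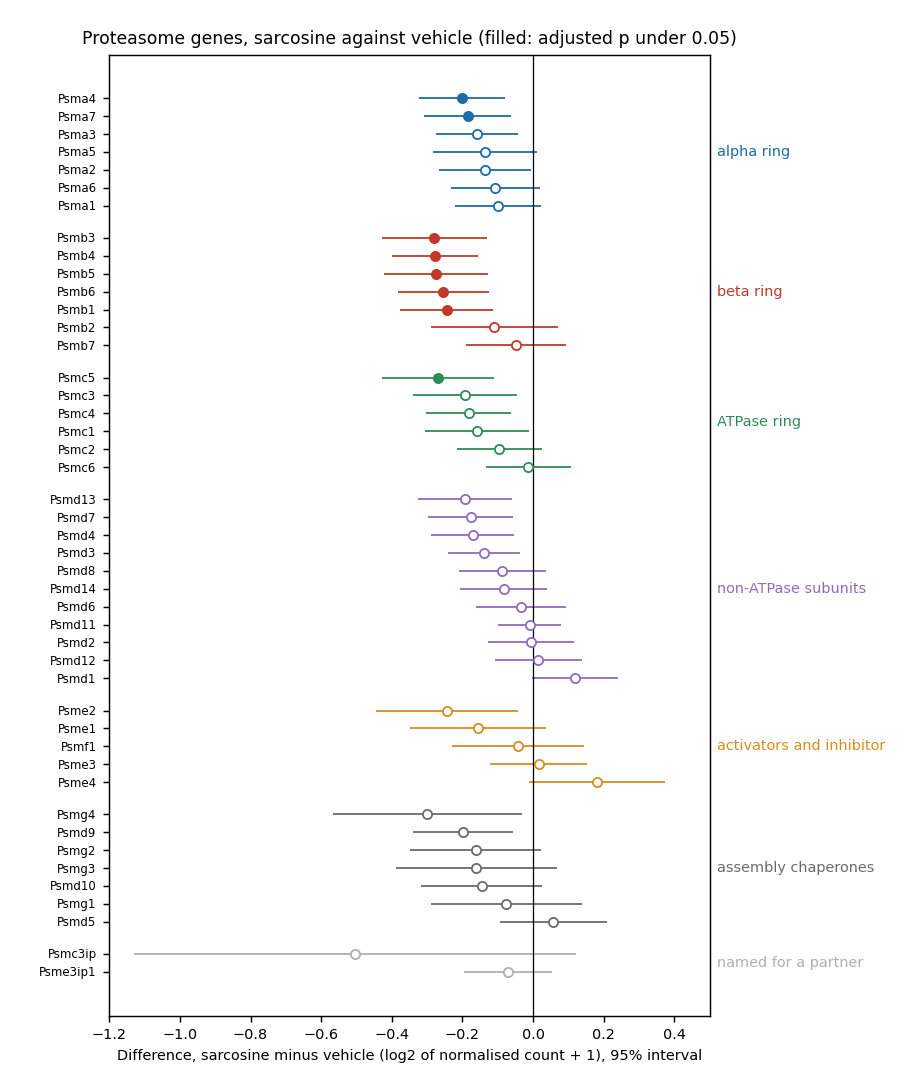
Difference of sarcosine from vehicle libraries (log2 of normalised count + 1) with its 95% interval for each of the 45 genes, by role, with filled points for genes at an adjusted p under 0.05 from limma (n = 6 libraries each). The filled points are 5 beta ring, 2 alpha ring and 1 ATPase gene, and the intervals of Psmd1 and Psme4 lie mostly above 0.

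Promoter windows are described next, and the ones printed were chosen by the calls and differences above. Of the 45 genes, 38 have a window in a RefSeq table (build GRCm38.p6), reaching 250 bases before to 50 bases after the start of transcription. The table has no entry for Psmb1, Psmb2, Psmb7, Psmc3, Psmd3, Psmd7 and Psmg2. Motifs were searched on both strands: TGACNNNGC, the core of the antioxidant response element that Nfe2l1 and related factors bind, CCAAT, the ETS core CCGGAAG, and the cyclic AMP response element TGACGTCA. No pair of these motifs overlapped in the windows printed here. Windows of the 4 called beta ring genes in the table, and of Psme4 as the gene with the most positive difference, are given 5′ to 3′ with motif matches in capitals.
Psmb3: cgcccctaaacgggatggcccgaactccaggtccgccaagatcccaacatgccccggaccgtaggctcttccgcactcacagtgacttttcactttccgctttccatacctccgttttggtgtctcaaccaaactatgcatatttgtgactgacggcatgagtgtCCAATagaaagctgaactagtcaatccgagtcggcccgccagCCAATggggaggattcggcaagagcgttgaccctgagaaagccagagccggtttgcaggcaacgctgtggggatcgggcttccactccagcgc
Psmb4: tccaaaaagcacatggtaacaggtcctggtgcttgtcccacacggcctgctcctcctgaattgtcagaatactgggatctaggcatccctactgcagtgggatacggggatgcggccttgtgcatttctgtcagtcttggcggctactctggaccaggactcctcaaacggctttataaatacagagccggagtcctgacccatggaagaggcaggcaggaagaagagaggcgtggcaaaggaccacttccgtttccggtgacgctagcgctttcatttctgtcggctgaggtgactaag
Psmb5: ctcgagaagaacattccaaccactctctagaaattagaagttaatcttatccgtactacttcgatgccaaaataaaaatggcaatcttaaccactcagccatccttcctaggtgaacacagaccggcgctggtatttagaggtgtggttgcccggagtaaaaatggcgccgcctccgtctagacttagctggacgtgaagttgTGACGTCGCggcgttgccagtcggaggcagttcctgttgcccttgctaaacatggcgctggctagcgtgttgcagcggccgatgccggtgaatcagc
Psmb6: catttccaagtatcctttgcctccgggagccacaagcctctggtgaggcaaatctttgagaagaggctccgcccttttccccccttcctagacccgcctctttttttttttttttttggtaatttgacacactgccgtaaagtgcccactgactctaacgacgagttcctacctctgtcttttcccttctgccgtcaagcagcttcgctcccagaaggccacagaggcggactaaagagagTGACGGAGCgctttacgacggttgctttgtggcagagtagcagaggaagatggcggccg
Psme4: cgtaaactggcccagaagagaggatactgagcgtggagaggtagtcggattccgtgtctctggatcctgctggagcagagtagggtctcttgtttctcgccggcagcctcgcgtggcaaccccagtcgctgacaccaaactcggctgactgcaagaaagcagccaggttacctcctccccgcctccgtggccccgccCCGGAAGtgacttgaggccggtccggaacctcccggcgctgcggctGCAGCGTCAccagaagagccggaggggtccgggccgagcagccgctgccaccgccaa
The windows lie at chr11:97703184-97703483 on the plus strand (Psmb3), chr3:94886909-94887208 on the minus strand (Psmb4), chr14:54617946-54618245 on the minus strand (Psmb5), chr11:70525107-70525406 on the plus strand (Psmb6) and chr11:30771525-30771824 on the plus strand (Psme4).

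Psmb5 and Psmb6 each hold an antioxidant response element core, with first bases at -47 and -9 from the start of transcription. Psmb3 holds CCAAT at -85 and -43, on the strand of the gene. Psmb4 holds none of the 4 motifs. Psme4 holds the element core at -7, read on the opposite strand, and an ETS core at -53. Over the genes with a window, the element core was present for 6 of 38 proteasome genes (15.8%), against 16.7% of the 12137 tested genes with a window. CCAAT was present for 14 of the 38 (36.8%), against 42.3% of those genes, and the cyclic AMP element for 0, against 3.35%. The ETS core was present for 16 of the 38 (42.1%), against 17.5% of the tested genes and 9.93% of all 27025 genes in the table. None of the 7 called genes with a window held the ETS core, and 16 of the 31 others did. These counts describe the letters in a short window, and their part in the differences was not tested.

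Transcript length moved with the differences inside the group. Across the 45 genes, the difference of sarcosine from vehicle correlated with log10 transcript length at r = 0.65, against r = 0.45 across all genes tested. The genes are not independent replicates, and they share the same libraries. Of the 23 genes at or under the median length, 7 were called lower and all 23 had negative differences, with a median of -0.16. Of the 22 longer genes, 1 was called and 17 were negative, with a median of -0.091. Psmb1, with 1970 bases, was the called gene among the longer ones. Psmb2, with 859 bases, and Psmb7, with 1160 bases, are short and were not called. The slope of a library's centred log2 values on log10 length was 0.19 ± 0.15 in sarcosine libraries and -0.23 ± 0.096 in vehicle libraries (mean ± SD, n = 6). With the trend removed, Psmb1 kept the most of its difference among the called genes, -0.17, and Psmb6 the least, -0.021. Of the 45, 3 then had an unadjusted p under 0.05. Length was that of the longest protein-coding transcript, so what a gene kept depends on that choice. A gene used mainly as a shorter transcript was corrected for the wrong length.

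**Figure D4:**
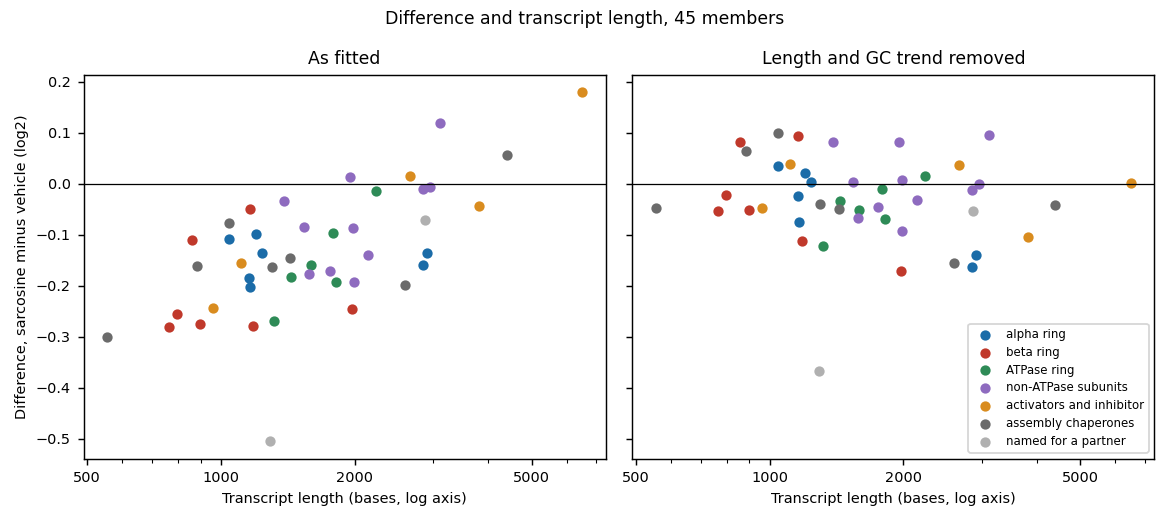
Difference of sarcosine from vehicle libraries (log2) against transcript length in bases (log axis) for the 45 genes, as fitted at left and with each library's length and GC trend removed at right. At left shorter genes lie lower (r = 0.65), and at right the median is -0.032 and no gene is called.

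Some libraries weighed more than others. The summed level of the 45 genes was 50939 to 55142 normalised counts in sarcosine libraries (median 53553) and 51796 to 65058 in vehicle libraries (median 58324). Vehicle replicate 1 had the highest sum of all libraries and the highest single value for 23 of the 45 genes. Vehicle replicate 5 had the lowest sum of its group, within the range of the sarcosine libraries. Psmb1, Psmb3, Psmb4, Psmb5 and Psmb6 were called in all 24 fits that left out 1 library. Psmc5 was called in 19, Psma4 in 17 and Psma7 in 6 of them. Leaving out a memantine or combination library changes the shared estimate of spread but not the difference of sarcosine from vehicle. Without vehicle replicate 1, sarcosine replicate 3 or sarcosine replicate 5 the count was 5, and without vehicle replicate 5 it was 15. With only the sarcosine and vehicle libraries in the fit, Psmb1, Psmb4 and Psmb6 were called, and Psmb3 and Psmb5 were not. With scores of olfactory bulb, striatal and oligodendrocyte markers as covariates, 3 of the 45 genes were called, Psmb1, Psmb6 and Psmc3ip. That fit called 1050 of the 16578 genes tested, in either direction.

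Exon overlap with other genes was looked up in GENCODE vM21, since the sources used here do not say whether counting used strand. Of the 8 called genes, Psma4 and Psmb5 overlap genes with mean normalised counts of 1.17 and 0. Psmb7, Psmc3, Psmc3ip, Psmd13, Psme1 and Psme3ip1 overlap genes on the opposite strand with means of 281 to 585 normalised counts, so their values are less certain. The 5 annotated pseudogenes of Psma and Psmb genes had at most 4.94 normalised counts in any library.

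Within groups most pairs of the 45 genes correlated positively, and other sets of genes were not measured in this way. The median correlation between pairs of the genes, over deviations from the group means in 24 libraries, was 0.37 for 990 pairs, and 79.9% of pairs were above 0. For the 4 roles of the core and regulatory particles the median was 0.55. These deviations share library depth and composition, and the mean deviation of the genes moved with the library's length slope (r = -0.63). Psma2 had the highest median correlation with the other genes, 0.57, and Psme4 the lowest, -0.35. Psmg3 and Psmd11 were also below 0, at -0.26 and -0.076. The median SD within groups was 0.11 (log2) for the 45 genes, against 0.25 over all genes tested. These 2 sets were not matched for level, and Psmc3ip, with the lowest counts of the 45, had an SD of 0.55.

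**Figure D5:**
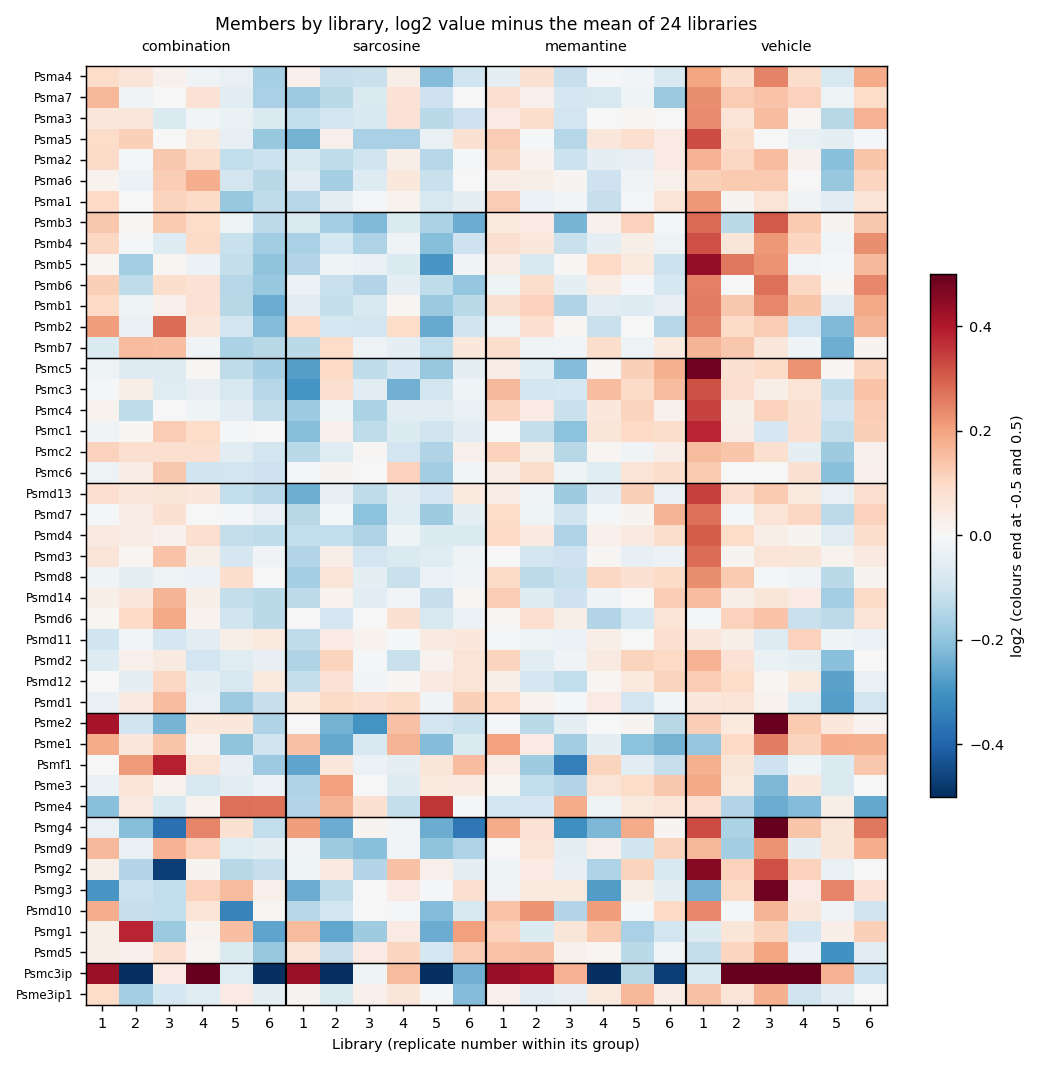
Log2 value of each gene in each of the 24 libraries minus its mean over them, with genes grouped by role and libraries by group, in colours that end at -0.5 and 0.5. Vehicle replicate 1 is high for most genes of the core and regulatory particles, and most sarcosine libraries are below the mean for the beta ring.

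Genes that work with the proteasome were counted from fixed lists. Of 15 factors bound to the proteasome or carrying substrates to it, 2 were called lower and 1 higher in sarcosine libraries. Pomp, the chaperone that matures the beta rings, had 1186, 1262 and 1281 normalised counts (lowest, median, highest) in sarcosine libraries and 1368, 1478 and 1833 in vehicle libraries, with no overlap. It fell by 0.28 on the log2 scale (SE 0.073, limma adjusted p = 0.0162). Akirin2, which brings the complex into the nucleus, had 1238, 1362 and 1451 in sarcosine libraries and 1430, 1569 and 1651 in vehicle libraries, a difference of -0.20 ± 0.056 (limma adjusted p = 0.0266). Ecpas, a large scaffold that links the regulatory and core particles, rose. It had 1573, 1934 and 1944 normalised counts in sarcosine libraries and 1265, 1482 and 1545 in vehicle libraries, with no overlap, and a difference of 0.35 ± 0.070 (limma adjusted p = 0.0036). With the length trend removed none of the 3 was called, and the differences were -0.34 for Pomp, -0.082 for Akirin2 and 0.16 for Ecpas. Sem1, a small subunit of the lid whose name falls outside the rule, differed by -0.27 ± 0.10 (limma adjusted p = 0.105).

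None of the 7 genes of the transcriptional control of the proteasome was called by limma, edgeR or DESeq2, and 0 had an unadjusted p under 0.05. Nfe2l1 had 5437, 6542 and 7878 normalised counts in sarcosine libraries and 5467, 5995 and 7538 in vehicle libraries, a difference of 0.065 (95% interval -0.12 to 0.25). None of the 4 genes of the Vcp segregase, which extracts ubiquitinated proteins, was called by these tools, and 0 had an unadjusted p under 0.05. Of 6 genes of ubiquitin and its activation, 2 were called lower. Ubb, a polyubiquitin gene, differed by -0.24 ± 0.068 (limma adjusted p = 0.0280) and Rps27a, a fusion of ubiquitin with a ribosomal protein, by -0.38 ± 0.10 (limma adjusted p = 0.0233). Of the 3 immunoproteasome genes, Psmb10 was called lower, with 447, 529 and 683 normalised counts in sarcosine libraries against 572, 682 and 874 in vehicle libraries (-0.38 ± 0.11, limma adjusted p = 0.0344). Psmb8 and Psmb9 differed by 0.23 ± 0.26 and 0.34 ± 0.25 and were not called. With the length trend removed none of these ubiquitin and immunoproteasome genes was called.

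Other complexes of many subunits were counted beside them. Of 8 genes of the CCT chaperonin, 0 were called by limma or edgeR, 1 had an unadjusted p under 0.05 and 1 was called by DESeq2, with a median difference of -0.062. Of 10 genes of the COP9 signalosome, which resembles the lid of the proteasome, 2 were called lower and the median was -0.061, and with the length trend removed 0 were called and the median was -0.024. Of 79 cytosolic ribosomal protein genes, 62 were called lower and the median was -0.33. With the length trend removed 5 of them were called, against 128 over all genes tested.

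In memantine libraries against vehicle, 0 of the 45 genes were called by limma, edgeR or DESeq2. Over all 16578 genes tested, limma called 0.0121%, edgeR 3 genes and DESeq2 424. The difference was negative for 36 of the 45, 8 had an unadjusted p under 0.05, each of them lower, and the median was -0.060. Of the 16578 genes tested, 1246 were lower at an unadjusted p under 0.05. With the length and GC trend removed, 17 of the 45 were negative, the median was 0.021 and 0 had an unadjusted p under 0.05. Psmb1 had the smallest p, with 1664, 1787 and 1999 normalised counts in memantine libraries and 1780, 2071 and 2207 in vehicle libraries (-0.17 ± 0.064, limma adjusted p = 0.198). In the same comparison Psmb4 differed by -0.16 ± 0.059, Psmb5 by -0.18 ± 0.071 and Psmb6 by -0.15 ± 0.062. Of the lists of other genes, 0 genes were called in this comparison by limma or edgeR. DESeq2 called 20 of the 79 ribosomal protein genes and 1 COP9 gene, and 69 of the 79 had an unadjusted p under 0.05. Psmb8 and Psmb9 differed by -0.61 ± 0.26 and -0.58 ± 0.25 (limma adjusted p = 0.273 and 0.276).

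In combination libraries against vehicle, 0 of the 45 were called by limma or edgeR, 8 had an unadjusted p under 0.05, each of them lower, and DESeq2 called 2. Of all 16578 genes tested, limma called 0.543%, edgeR 70 genes and DESeq2 473, and 1304 were lower at an unadjusted p under 0.05. The difference was negative for 39 of the 45 proteasome genes and their median was -0.055. With the length and GC trend removed, 32 of the 45 were negative and the median was -0.040. Of the 45, 2 then had an unadjusted p under 0.05 and 0 were called, against 5 called over all genes tested. Psmb5 had 642, 701 and 743 normalised counts in combination libraries and 732, 844 and 1001 in vehicle libraries, overlapping narrowly, and a difference of -0.26 ± 0.071 (limma adjusted p = 0.0762). Psmc5 had 2615, 2808 and 2949 in combination libraries and 2953, 3151 and 4100 in vehicle libraries. These did not overlap, though the highest combination and the lowest vehicle library lay close together. The difference of Psmc5 was -0.24 ± 0.076 (limma adjusted p = 0.133). Psmg2, an alpha ring chaperone, differed by -0.30 ± 0.089 (limma adjusted p = 0.107). These comparisons use the same vehicle libraries as the comparison of sarcosine with vehicle, so they are not independent of it.

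In combination libraries against sarcosine, 0 of the 45 were called by limma, edgeR or DESeq2. Over all 16578 genes tested, limma and edgeR called 0 and DESeq2 called 45. The difference was positive for 35 of the 45 proteasome genes, their median was 0.058, and 2 had an unadjusted p under 0.05. With the length and GC trend removed, 29 of the 45 were negative and the median was -0.019. Psmb3 had 663, 751 and 797 normalised counts in combination libraries and 611, 648 and 691 in sarcosine libraries, a difference of 0.19 ± 0.072 with all 6 combination libraries above the sarcosine mean (limma adjusted p = 0.443). Psmb5 had 642, 701 and 743 in combination libraries and 603, 712 and 729 in sarcosine libraries, which overlapped. In combination libraries against memantine, 0 were called by limma, edgeR or DESeq2. Over all 16578 genes tested, limma called 0.0543%, edgeR 10 genes and DESeq2 61. None of the 45 proteasome genes had an unadjusted p under 0.05, 27 of their differences were negative and the median was -0.012. With the length and GC trend removed, 40 were negative and the median was -0.062. Of the 45, 1 then had an unadjusted p under 0.05 and 0 were called, against 16 called over all genes tested.

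The interaction asks whether the effect of sarcosine differs with memantine present. By limma and edgeR 0 of the 45 were called, against 1.82% of all genes tested by limma. Of all genes called, 68.1% were negative, and 27.8% were with upper-quartile scaling, which called 2 of the 45. The interaction was positive for 37 of the 45, with a median of 0.14 against 0.012 over all genes. Of the 45, 10 had an unadjusted p under 0.05, each of them positive, and DESeq2 called 3. Of the 16578 genes tested, 2782 had an unadjusted p under 0.05, in either direction, and DESeq2 called 935. Psmb3 had the smallest p (0.32 ± 0.10, limma adjusted p = 0.0944), followed by Psmb4 (0.26 ± 0.084, limma adjusted p = 0.103). The beta ring had a median of 0.23, with 7 of 7 values positive, and 4 of its 7 genes had an unadjusted p under 0.05. The interaction uses the same sarcosine and vehicle libraries as the comparison of sarcosine with vehicle, so these values are not independent of it. With the length and GC trend removed, the beta ring median was -0.061, 4 of the 7 were negative and 0 had an unadjusted p under 0.05. With the length trend removed the median over the 45 was -0.059 and 0 had an unadjusted p under 0.05. Of the 5 lists of genes that work with the proteasome, Ecpas was called, with an interaction of -0.39 ± 0.099 (limma adjusted p = 0.0447), a call that edgeR did not make and that was lost with the length trend removed (-0.18). Of the 79 ribosomal protein genes, 13 had a positive interaction called by limma, 12 by edgeR and 55 by DESeq2. With the length trend removed limma called 0 of them, and 0 over all genes tested.

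Over all 4 groups Psmb4 had 2104, 2312 and 2546 normalised counts in combination libraries, 2047, 2169 and 2336 in sarcosine libraries, 2195, 2375 and 2504 in memantine libraries and 2350, 2656 and 2962 in vehicle libraries. The 3 drug groups overlapped one another, and the sarcosine group alone lay fully below vehicle. Psmb6 had 1346, 1507 and 1667 in combination libraries, 1341, 1413 and 1503 in sarcosine libraries, 1441, 1518 and 1630 in memantine libraries and 1536, 1728 and 1855 in vehicle libraries. Summed over the 45 genes, combination libraries had 51759 to 57438 normalised counts, sarcosine libraries 50939 to 55142, memantine libraries 52001 to 57957 and vehicle libraries 51796 to 65058, and all 4 ranges overlapped.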

How the data were processed

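RNA of 24 frontal cortex libraries was measured by bulk sequencing, 6 in each of 4 groups taken from the labels. The authors' deposited table gives a normalised signal per gene and library. Per the submitters' processing notes, the tools included FastQC, STAR, featureCounts 1.6.0, DESeq2 1.42.1 and DESeq, on build mm39; their settings are not given in the sources used here. The values show the signal to be a read count divided by a size factor: 100% of values were whole multiples of a library's step within 0.01 of a read, and dividing by it recovered 12678114 to 21844579 reads. In memantine replicate 5 that step lay near 1. No sample column was left out.

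Values were taken as log2(value + 1), and 1 model of the 4 group means was fitted over 24 libraries with limma 3.58.1 (R 4.3.3, mean-variance trend, no covariate, two-sided) on the 16578 genes that reached 10 normalised counts in 6 or more libraries. Adjustment was by Benjamini-Hochberg over these genes for each of 6 contrasts. edgeR 4.0.16 and DESeq2 1.42.0 ran on the recovered reads. Transcript length and GC content came from GENCODE vM21 (the longest protein-coding transcript of a gene), matched by identifier for 98.2% of tested genes and all 45 members. Its build differs from mm39, so none of its coordinates are printed. The correction subtracted a loess trend of each library on both. The fit was also run on simulated counts with independent genes and no trend with length. That run cannot show how such trends or mixed tissue affect the calls.

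Genes named were the catalytic subunits and activators, in each role those with the smallest and the largest p and the highest and lowest level per kilobase, and called pathway genes. Psma2, Psmb1, Psmb2, Psmb3, Psmc3, Psmd1, Psmd13 and Psmg2 were added after their values were seen. Members, lists and tests were chosen with earlier results of these data known. Alternatives covered the pseudocount, filter, scaling, replicate block, covariates, library weights, the groups fitted and each library left out.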

Additional observations from a re-analysis of the deposited data

Results flagged for a closer look

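Psme2 had 536 normalised counts in vehicle replicate 3, where the other 5 vehicle libraries had 385 to 417. Psmd4 had 1367 in memantine replicate 3, where the other 5 memantine libraries had 1551 to 1632. Psmb3 had 618 in memantine replicate 3, where the others had 723 to 785. Each of these libraries lay farther from the nearest of its group than Dixon's 95% critical value for 6 samples allows. Chance alone flags about 1 in 20 groups, and 3 of 104 were flagged. Without vehicle replicate 3 the difference of sarcosine from vehicle for Psme2 was -0.17, and it was not called with or without that library.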

How the results depend on the processing

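In sarcosine against vehicle, the count of 8 proteasome genes stayed within 1.5 times under another pseudocount (8 and 9), a mean of at least 50 (12), TMM scaling (9) and edgeR (10). It was 5 with no filter on low values, 17 with upper-quartile scaling, 3 with marker scores as covariates, 19 with library weights (18 lower and Psme4 higher), 3 with only the groups compared in the fit, 0 with the length and GC correction and 15 with DESeq2. Over all genes tested, limma called 1050 with marker scores and 128 with the length and GC correction, in either direction. Leaving out each library gave 5 to 15 of the 45. In combination against vehicle DESeq2 called 2, and leaving out each library gave 0 to 1. For the interaction, upper-quartile scaling gave 2, library weights 5, DESeq2 3, and leaving out each library 0 to 2. Replicate numbers could not be taken to pair the libraries: deviations of same-numbered libraries correlated at -0.75 to 0.73, 18 of 36 over 0.1. Between sarcosine and combination all 6 were above 0 (0.043 to 0.73), for replicate 5 all 6 were 0.33 to 0.72, between vehicle and sarcosine 5 of 6 were below 0, and 6 of 24 libraries correlated best with their own number. With the number as a block, 7 genes were called in sarcosine against vehicle, without Psma7, Psmb10 was not called, and 0 of the 45 were called elsewhere. Small differences of sarcosine from vehicle changed sign. With the length and GC correction they were 0.095 for Psmb7, 0.082 for Psmb2, 0.022 for Psma1, 0.099 for Psmg1, 0.015 for Psmc6, 0.00018 for Psmd2, 0.039 for Psme1 and -0.020 for Nfe2l1. With marker scores they were 0.0052 for Psmb7, 0.029 for Psmc6 and 0.061 for Psmd2. Library weights gave 0.023 for Psmd2, and upper-quartile scaling -0.030 for Psme3. Leaving out each library gave -0.030 to 0.053 for Psme3, -0.057 to 0.018 for Psmc6 and -0.047 to 0.030 for Psmd2. The cause of these changes was not tested. Psmc3ip had the lowest counts of the 45, and the part of depth in its spread was not tested.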
